A study of Mus musculus with 56 samples.

Results

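The 28 jejunum arrays of the study were assigned to classes defined by the measured signal of Tff2, which encodes a small secreted peptide of the stomach mucosa and of Brunner's glands in the duodenum. An array with a log2 signal of 8 or more was called Tff2-high, and the others were called Tff2-low. Each class held 14 of the 28 jejunum arrays, out of 56 arrays in the whole series. Since Tff2 chose the classes, its values are a description only, and a gene called different between the classes is a gene that goes with Tff2 across these arrays. The mice were BALB/C animals that were either wild type (WT) or lacked Tweak (KO), the TNF-like signalling protein that the gene Tnfsf12 encodes, and they received 3 Gy of ionizing radiation. Whole jejunum was taken at 0, 6 or 24 h. Whether the mice of the 0 h groups were exposed is not clear from the labels, which also give neither age nor sex. The labels number the samples within a group but do not state that each came from its own mouse, so p-values measure the spread between these samples, which may be in part technical. The WT groups held 5, 5 and 4 arrays at 0, 6 and 24 h, and the KO groups 5, 4 and 5.

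The small intestine changes along its length. Near the stomach, under the transcription factors PDX1, GATA4 and ONECUT2, the epithelium takes up iron, calcium and folate and makes hormones such as cholecystokinin. Towards the colon it recovers bile acids and vitamin B12 and makes peptide YY and neurotensin. The duodenum also carries Brunner's glands in its wall and lies against the pancreas, and the jejunum follows it without a sharp border. These arrays measured whole tissue, so fewer cells of a type and less RNA per cell cannot be told apart.

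In the Tff2-high arrays the Tff2 signal ran from 10.9 to 14.67 on the log2 scale, with a median of 13.85. In the Tff2-low arrays it ran from 2.77 to 6.15 with a median of 3.03, close to the array floor of 2.32. The arrays nearest to the threshold were WT 24 h replicate 4 (6.15) and KO 24 h replicate 4 (5.01) below it, and KO 0 h replicates 2 (10.9) and 5 (11.29) above it. No array lay between 6.15 and 10.9, and thresholds of 7 and 9 gave the same classes.

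The classes were spread unevenly over the study's groups. Tff2-high arrays made up 5 of 5 at WT 0 h, 4 of 5 at WT 6 h and 2 of 4 at WT 24 h. In the KO mice they made up 3 of 5 at 0 h, 0 of 4 at 6 h and 0 of 5 at 24 h. By genotype this was 11 of 14 WT against 3 of 14 KO arrays (two-sided exact p = 0.00703, 0.0211 after Benjamini-Hochberg adjustment over 3 labels). By time it was 8 of 10, 4 of 9 and 2 of 9 arrays (exact p = 0.0477, adjusted 0.0477). The p for time was above 0.05 (0.0697 or 0.0835) without any 1 of the 8 Tff2-high arrays at 0 h or of the 7 Tff2-low arrays at 24 h. The array file names fell into 2 series, treated as batches. The first held all WT arrays and KO 0 h replicate 1, and 11 of its 15 arrays were Tff2-high, against 3 of 13 in the second (exact p = 0.0213, adjusted 0.032). Genotype and batch were nearly the same division of the arrays and cannot be told apart here. The share of probe sets at the floor was 28.8% to 33.3% in Tff2-high and 29.8% to 32.7% in Tff2-low arrays. The 3'-to-5' difference of Gapdh, a measure of RNA integrity, was 0.08 to 1.25 and 0.51 to 1.25 on the log2 scale.

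The targeted gene was read from a probe set annotated to Tnfsf12 and to its read-through transcript. Its signal was 2.77 to 4.08 in the 14 WT and 2.34 to 2.75 in the 14 KO arrays, and the genotypes did not overlap. A second probe set, shared also with Tnfsf13, overlapped between genotypes (5.22 to 7.86 in WT, 5.96 to 7.74 in KO). Tnfrsf12a, the Tweak receptor, differed by 0.18 ± 0.185 between the Tff2 classes (adjusted p = 0.577).

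**Figure D1:**
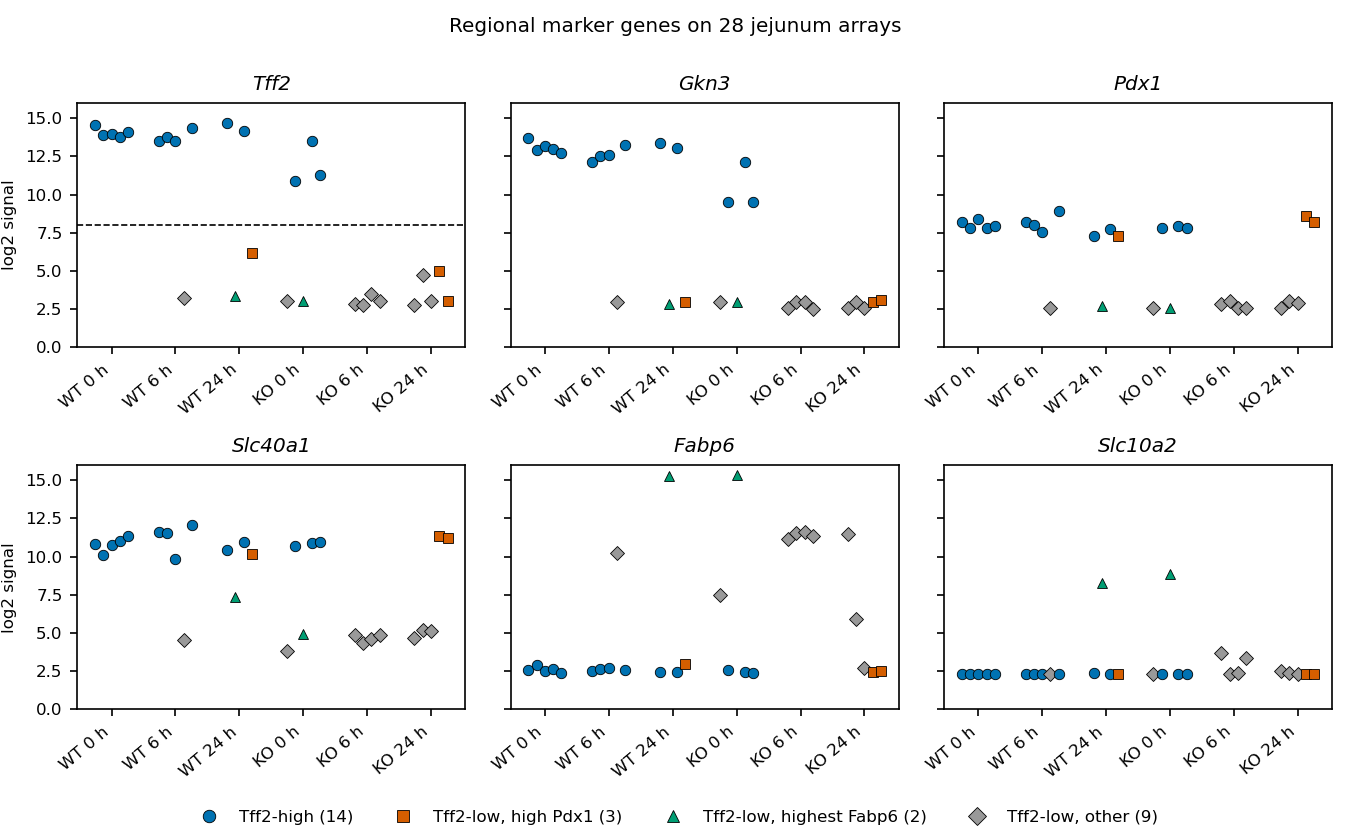
Log2 signal (vertical axis) of 6 regional genes on each of the 28 jejunum arrays, 1 point per array, by genotype and time; the dashed line is the Tff2 threshold of 8, and colours and shapes mark Tff2-high arrays and 3 kinds of Tff2-low arrays. Gkn3 follows Tff2, whereas Pdx1 and Slc40a1 are also high on 3 Tff2-low arrays, and Fabp6 is highest at 15.28 and 15.33 on 2 others.

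The label of proximal and non-proximal jejunum was checked against other markers, and it did not hold for all Tff2-low arrays. Pdx1, a transcription factor of duodenum and pancreas, ran from 7.30 to 8.91 with a median of 7.87 in the Tff2-high arrays. In 11 Tff2-low arrays it lay between 2.57 and 3.04. The other 3 had 8.59 (KO 24 h replicate 4), 8.19 (KO 24 h replicate 5) and 7.28 (WT 24 h replicate 4), which is the level of the Tff2-high arrays. The same 3 arrays had the Tff2-high level of Akp3, the intestinal alkaline phosphatase of mouse duodenum, with 12.22, 12.05 and 10.69 against 9.54 to 12.74 in the Tff2-high arrays. Their ferroportin (Slc40a1) signal was 11.35, 11.23 and 10.16, and their Fabp6, the bile acid binding protein of the ileum, was 2.43, 2.50 and 3.01. The classes are therefore named here by Tff2 and not by position.

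Few genes besides Tff2 separated these 3 arrays from the Tff2-high arrays. Of 13644 genes tested, 40 (0.293%) did not overlap between the 14 Tff2-high arrays and the 3 arrays, and 2 of these differed in their means by 2 or more on the log2 scale. They were Gkn3 (mean 12.4 against 3.02) and Gkn1 (mean 7.42 against 2.34), which encode gastrokines, secreted proteins of the gastric mucosa. For Gkn1 the gap was small, since WT 6 h replicates 1 and 2 and KO 0 h replicates 2 and 5 had 2.37 to 2.4, near the floor, although they were Tff2-high. The next 2 were Ttr, the thyroid hormone carrier transthyretin (1.66), and Ehf, an epithelial transcription factor (1.28). A random order of 14 and 3 arrays would also leave about 0.293% of genes without overlap. The count of 40 is therefore no result about these genes. As a description, KO 24 h replicates 4 and 5 and WT 24 h replicate 4 reached the range of the Tff2-high arrays for 557, 552 and 455 of the 573 genes called higher below. The other 11 Tff2-low arrays did so for 115 to 357 of them.

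At the opposite end stood KO 0 h replicate 3 and WT 24 h replicate 2. Their Fabp6 signal was 15.33 and 15.28, against 2.38 to 2.91 in the Tff2-high arrays and 2.70 to 11.61 in the other 9 Tff2-low arrays with low Pdx1. Slc10a2, the ileal bile acid transporter, was 8.83 and 8.25 on these 2 arrays and no higher than 3.71 on the other 26. Gata4, which is known in mouse to hold back ileal genes in the jejunum, was 5.45 and 5.26, against 6.98 to 7.91 in the 9 arrays and 7.75 to 8.69 in the Tff2-high arrays. Thus 4 patterns of regional genes were seen on arrays that carry the same tissue label, and both arrays with high Slc10a2 were Tff2-low. Results below are given with and without the 3 and the 2 arrays where that matters. Both sets were chosen after their values were seen.

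**Figure D2:**
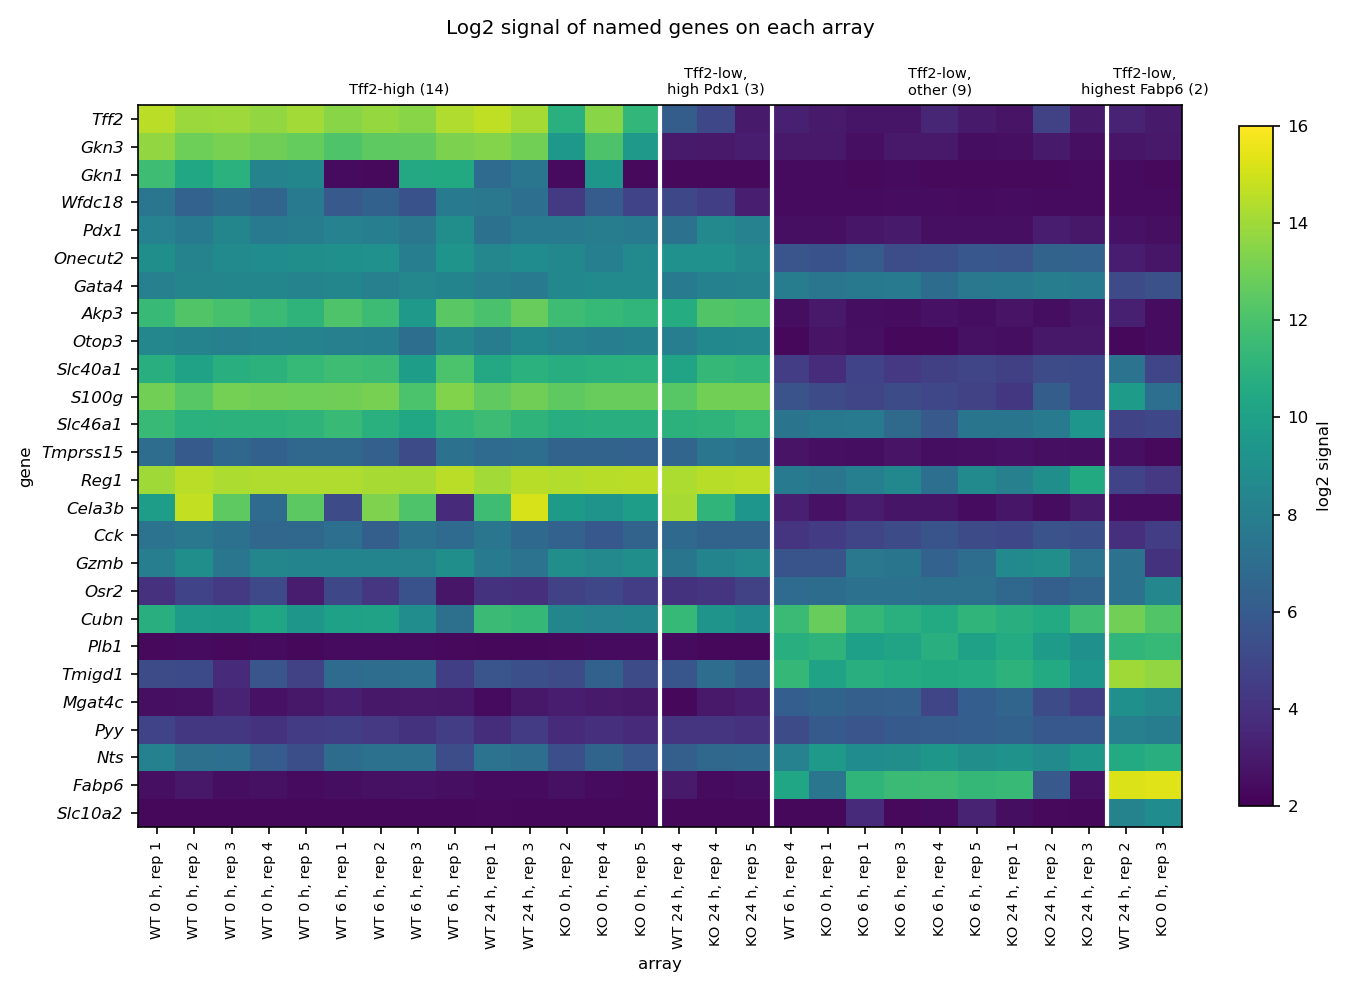
Log2 signal (colour scale from 2 to 16) of 26 genes (vertical) on the 28 jejunum arrays (horizontal), ordered by Tff2 class and by the 3 kinds of Tff2-low arrays. The 3 Tff2-low arrays with high Pdx1 match the Tff2-high arrays from Pdx1 down to Reg1 but are dark at Tff2, Gkn3 and Gkn1, and the 2 arrays at the right are brightest at Fabp6 and Slc10a2.

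Across genes, the classes were compared in a linear model of log2 signal with genotype and time as covariates. A gene was called at an adjusted p under 0.05. Of 13644 genes, 1121 (8.22%) were called, 573 higher (4.2%) and 548 lower (4.02%) in the Tff2-high arrays. The median difference over all genes was -0.0042. The count was 1624 (11.9%) without the 3 Tff2-low arrays with high Pdx1, and 1072 of these genes were among the 1121. Without the 2 arrays with the highest Fabp6 it was 189 (1.39%), of which 186 were among the 1121. Leaving out WT 24 h replicate 2, KO 0 h replicate 3 or KO 0 h replicate 1 alone gave 575, 625 and 743 calls. Among the 93 called genes named below, all 93 kept their call without the 3 arrays, but 47 did so without the 2. With batch as a term 743 genes were called, and in batch 1 alone 3. The only KO array of batch 1 is fitted by its own genotype term, so that fit is nearly the one within WT below. Counts within the gene lists below stand beside the shares of 4.2% higher and 4.02% lower over all genes. A count of 0 or 1 in a short list cannot be told from those shares.

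Among gastric genes, Gkn3 had the largest fitted difference. It was 9.48 to 13.71 (median 12.82) in the Tff2-high and 2.52 to 3.10 (median 2.97) in the Tff2-low arrays. The classes did not overlap, and apart from Gkn3 this was true of 1 gene among 13644, the N-acetyltransferase Nat9 (2 genes, 0.0147%). The fitted Gkn3 difference was 8.79 ± 0.412 (SE, n = 14 and 14 arrays, adjusted p = 6.45e-14), and low values near the floor make its fold approximate. KO 0 h replicates 2 (9.48) and 5 (9.54) had the lowest Gkn3 of the Tff2-high arrays, as they had the lowest Tff2. Wfdc18, a secreted protein with a whey acidic protein domain, was 4.37 to 7.84 against 2.41 to 5.03 (difference 3.17 ± 0.439, adjusted p = 0.000742). Its 3 highest Tff2-low values came from the 3 arrays with high Pdx1 (5.03, 4.58 and 3.18). Gkn1 was at 8.34 in the median Tff2-high array but ran from 2.37 to 11.64 there, and its difference of 3.07 was not called.

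Of the 10 Brunner's gland and stomach genes tested besides Tff2, 3 were higher and none lower, with a median difference of 2.12. The 3 were Gkn3, ghrelin (Ghrl, the hunger hormone, 2.41 ± 0.415, adjusted p = 0.00235) and progastricsin (Pgc, a digestive protease precursor, 1.82 ± 0.363, adjusted p = 0.00418). Pgc was 2.76 to 6.37 in the Tff2-high and 2.76 to 3.29 in the Tff2-low arrays. The classes overlapped through KO 0 h replicates 2 (2.76) and 5 (3.05), which were Tff2-high. Ghrl on the 3 arrays with high Pdx1 was 6.13, 5.35 and 6.12, within its Tff2-high range of 5.18 to 7.13. Gkn2 (3.63), Gkn1 and Tff1 (2.82) were not called. These 3 calls held without the 2 arrays with highest Fabp6.

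The 300 bases around the annotated start (250 before and 50 after it) are shown for 4 genes, the 2 with the largest named differences in each direction that have a single entry in the promoter table. Genes with several entries, and the near-identical alpha-defensins, were passed over, so Fam151a stands in for larger differences on its side. Sequences are from RefSeq on assembly GRCm38.p6, written 5′ to 3′ on the gene's strand. Capitals mark the letters AGATAA or TGATAA, searched on both strands, which are forms bound by GATA factors. On the opposite strand the first reads TTATCT and the second reads TTATCA.
Gkn3 promoter, chr6:87388886-87389185, minus strand: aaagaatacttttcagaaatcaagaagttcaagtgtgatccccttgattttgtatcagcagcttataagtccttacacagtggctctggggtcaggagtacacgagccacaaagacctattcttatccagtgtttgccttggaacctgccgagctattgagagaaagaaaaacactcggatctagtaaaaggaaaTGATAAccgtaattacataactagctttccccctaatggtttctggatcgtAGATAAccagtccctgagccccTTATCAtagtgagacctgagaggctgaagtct
Akp3 promoter, chr1:87124704-87125003, plus strand: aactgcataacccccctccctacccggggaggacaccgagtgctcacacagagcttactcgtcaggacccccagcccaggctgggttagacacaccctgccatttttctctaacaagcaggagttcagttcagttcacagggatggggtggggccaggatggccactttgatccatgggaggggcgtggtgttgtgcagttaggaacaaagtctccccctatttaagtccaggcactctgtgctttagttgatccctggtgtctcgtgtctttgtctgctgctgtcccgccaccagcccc
Fabp6 promoter, chr11:43601513-43601812, minus strand: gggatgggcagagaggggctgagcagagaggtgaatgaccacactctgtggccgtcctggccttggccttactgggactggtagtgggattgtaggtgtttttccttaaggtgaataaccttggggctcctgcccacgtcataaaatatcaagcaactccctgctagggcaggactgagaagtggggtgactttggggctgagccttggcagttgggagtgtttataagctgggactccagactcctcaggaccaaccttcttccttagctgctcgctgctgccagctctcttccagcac
Fam151a promoter, chr4:106733665-106733964, plus strand: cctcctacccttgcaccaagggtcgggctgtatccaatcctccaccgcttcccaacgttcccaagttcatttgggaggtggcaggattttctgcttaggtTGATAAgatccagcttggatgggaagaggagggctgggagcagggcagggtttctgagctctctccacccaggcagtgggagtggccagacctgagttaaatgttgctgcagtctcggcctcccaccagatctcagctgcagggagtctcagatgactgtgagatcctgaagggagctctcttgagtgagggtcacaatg
The Gkn3 window held 3 matches, that of Fam151a 1, and those of Akp3 and Fabp6 none. Among the 12 largest differences in each direction, 4 of 10 genes with an entry had a match on the higher side and 4 of 12 on the lower side. Over all 32851 promoter entries the share was 18.6%, and 20.96% of all genes had a match in at least 1 entry, so a match is a common feature of such windows. No test was made of these counts.

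Regional transcription factors gave calls in both directions. Of 27 tested, 4 were higher and 3 lower, with a median of -0.11. Pdx1 differed by 4.55 ± 0.841 (adjusted p = 0.00346), and by 5.23 without the 3 arrays. Those arrays were picked by their high Pdx1, so the larger value follows from that choice. Onecut2, a cut-homeobox factor, was 7.99 to 9.22 against 2.82 to 9.09 (3.34 ± 0.694, adjusted p = 0.00482), and its 2 lowest values were those of the arrays with highest Fabp6. Gata4 was higher by 1.42 ± 0.352 (adjusted p = 0.0131) and Gata6 by 0.79 ± 0.212 (adjusted p = 0.0214). Osr2, a zinc-finger factor, was lower by 2.39 ± 0.505 on the log2 scale (fitted difference -2.39, adjusted p = 0.00514). Cdx1, a homeobox factor of the intestine, differed by -0.80 and Nr5a2, a nuclear receptor, by -0.61. Without the 2 arrays only Pdx1 of the 7 kept its call, and without WT 24 h replicate 2 or KO 0 h replicate 3 alone Gata6, Cdx1 and Nr5a2 lost theirs. Cdx1 and Nr5a2 also lost theirs without WT 6 h replicate 4. Cdx2 (-0.17), Hnf4a (-0.05) and Sox9 (0.16) were not called.

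Mineral and vitamin uptake genes were higher in the Tff2-high arrays in 8 of 14 tested and lower in none, with a median of 0.80. S100g, the calcium-binding protein calbindin-D9k, was 12.06 to 13.33 (median 12.93) against 4.27 to 13.04 (median 5.39). All Tff2-high arrays were high, and so were the 3 Tff2-low arrays with high Pdx1 (12.37 to 13.04), so the classes overlapped. Its difference was 5.40 ± 1.11 (42.2-fold, adjusted p = 0.00469). Slc40a1, which exports iron into the blood, was 9.84 to 12.06 against 3.8 to 11.35 (5.18 ± 0.937, 36.3-fold, adjusted p = 0.00296). Slc46a1, the proton-coupled folate transporter, differed by 3.92 ± 0.743 (15.1-fold, adjusted p = 0.00348).

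Further members of this group followed the same order with smaller differences. Cybrd1, a ferric reductase of the brush border, differed by 2.10 ± 0.451 and Trpv6, the apical calcium channel, by 2.19 ± 0.567. Slc30a10, a manganese exporter, differed by 1.98 ± 0.473, the ferritin heavy chain Fth1 by 0.98 ± 0.186 and the metal transporter Slc39a14 by 0.60 ± 0.141. Slc11a2, the apical iron importer DMT1 (0.18), hephaestin (Heph, 0.10) and the transferrin receptor Tfrc (-0.01) were not called. Without the 2 arrays 4 of the 8 kept their call, and Trpv6 lost its call without WT 24 h replicate 2 alone. Cybrd1 was 4.50, 5.11 and 4.44 on the 3 arrays with high Pdx1, in the lower part of its Tff2-high range of 4.14 to 7.51.

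Enterocyte enzymes and transporters with large positive differences shared this pattern. Akp3 was 9.54 to 12.74 (median 11.63) against 2.44 to 12.22 (median 2.70). Every Tff2-high array was above 9 and 11 of the Tff2-low arrays were at or below 3.23, with the 3 arrays with high Pdx1 as the exception. The difference was 7.77 ± 1.35 (adjusted p = 0.00253). Otop3, a proton channel, differed by 4.79 ± 0.881 and Ugt2b38, a glucuronosyltransferase, by 5.26 ± 0.987. Car2, a carbonic anhydrase, was 8.25 to 10.3 against 4.07 to 8.53 (3.61 ± 0.541, adjusted p = 0.00111). Slc37a2, a sugar phosphate exchanger, differed by 3.49 ± 0.688, and Scarb1, a lipoprotein receptor, by 2.98 ± 0.502. Tmprss15 encodes enteropeptidase, the duodenal protease that activates trypsinogen. It was 5.24 to 7.23 against 2.37 to 7.49 (3.38 ± 0.701, adjusted p = 0.00481).

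Pancreatic transcripts varied widely within the Tff2-high class. Reg1, a secreted regenerating protein of pancreas and proximal gut, was 14.03 to 14.57 in the Tff2-high and 4.32 to 14.63 in the Tff2-low arrays (6.70 ± 1.15, adjusted p = 0.00235). Its lowest values, 4.32 and 4.84, were on the 2 arrays with highest Fabp6. Cela3b, a pancreatic elastase, ran from 3.72 to 15.16 among the Tff2-high arrays and reached 14.18 on WT 24 h replicate 4 (5.56 ± 1.76, adjusted p = 0.049). It was called in 9 of 28 fits that left out 1 array each. Of the 20 pancreatic genes tested, these 2 were higher and none lower, with a median of 2.42 (1.44 without the 2 arrays and 3.44 without the 3).

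The mean level of the 21 pancreatic genes on the array was 4.70 to 11.82 in the Tff2-high arrays. It was 4.33 to 4.53 in the 9 Tff2-low arrays with neither high Pdx1 nor highest Fabp6, and 5.75 to 10.7 on the 3 arrays with high Pdx1. Carboxypeptidase Cpa1 alone spanned 2.33 to 12.87 within the Tff2-high class. The mean pancreatic level differed widely between arrays, and its part in the other differences was not tested.

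Genes higher in the Tff2-low arrays were led by Fabp6. It was 2.38 to 2.91 (median 2.54) in the Tff2-high and 2.43 to 15.33 (median 10.69) in the Tff2-low arrays. KO 24 h replicates 3 (2.70), 4 (2.43) and 5 (2.50) lay within the Tff2-high range, WT 24 h replicate 4 (3.01) lay just above it, and the other Tff2-low arrays were at 5.93 or more. The difference was -8.17 ± 1.6 (adjusted p = 0.00397), and -5.30 without the 2 arrays (adjusted p = 0.0404). Those arrays were picked by their Fabp6, so the smaller value follows from that choice. Plb1, the brush border phospholipase B, was 2.32 to 2.42 in all Tff2-high arrays and on the 3 arrays with high Pdx1, and 9.03 to 11.39 on the other 11 (-7.33 ± 1.22, adjusted p = 0.00201). It separated those 11 arrays, including KO 24 h replicate 3, from all others.

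Other leading genes on this side were Tmigd1, an epithelial adhesion protein (-5.05 ± 0.963), Fam151a (-3.89 ± 0.679) and Mgat4c, a glycosyltransferase (-3.56 ± 0.71). Slc5a8, a monocarboxylate transporter, differed by -3.24 ± 0.752, and Cubn, the ileal receptor for vitamin B12 bound to intrinsic factor, by -2.74 ± 0.571. Amn, the partner of cubilin, differed by -0.83 ± 0.206. Defa31, an alpha-defensin of Paneth cells, differed by -5.42 ± 1.08, but its probe set is uncertain because the family has near-identical copies. Saa1, an acute phase protein, differed by -3.25 ± 0.86 and reached 11.1 on WT 24 h replicate 2. Gsdme (-2.63), Bex1 (-2.63) and Map3k6 (-2.62) completed the 12 largest.

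Of 12 distal and bile acid genes tested, 3 were lower and 1 higher, with a median of -0.84 (-0.23 without the 2 arrays). The gene that was higher was Abcc3, a basolateral exporter of conjugated bile acids and glucuronides (1.31 ± 0.189, adjusted p = 0.000928). Fgf15 (-2.20), the ileal hormone that signals bile acid supply to the liver, and Slc10a2 (-2.15) were not called. Slc10a2 was 2.32 to 2.36 in the Tff2-high and 2.32 to 8.83 in the Tff2-low arrays.

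Peptidases differed in opposite directions along the same division. Of 14 peptide digestion and uptake genes tested, 5 were lower and 1, Tmprss15, was higher in the Tff2-high arrays. Xpnpep2, which cleaves before proline, was 5.91 to 7.62 against 6.82 to 10.15 (-2.35 ± 0.425, adjusted p = 0.00296). Mep1a, a meprin subunit, differed by -2.26 ± 0.447 and Naaladl1, an ileal dipeptidase, by -2.14 ± 0.402. Enpep, aminopeptidase A, differed by -0.42 ± 0.0886. The peptide transporter Slc15a1 (-0.53) and aminopeptidase N (Anpep, -0.15) were not called.

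Sugar, lipid and vitamin A genes gave fewer calls. Treh, the trehalase, was higher by 1.73 ± 0.356 as the single call of 11 sugar genes, while Lct (0.24) and Slc5a1 (-0.06) were not called. Of 20 lipid genes, Scarb1 and Apoc2 (1.47 ± 0.342) were higher and Npc1l1, the cholesterol importer, was lower (-0.71 ± 0.156). Of 8 vitamin A genes, Adh1 (2.06 ± 0.596) and Rbp2, the enterocyte retinol-binding protein (0.87 ± 0.255), were higher. Adh1 lost its call without WT 24 h replicate 2, WT 6 h replicate 4 or KO 0 h replicate 3, and Rbp2 without WT 24 h replicate 2 or any of KO 0 h replicates 2, 4 and 5.

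Xenobiotic enzymes were higher in 6 of 25 tested and lower in none, with a median of 0.74. Without the 2 arrays with highest Fabp6 the median was 0.29 and 3 genes of the list were called. Adh6a differed by 3.44 ± 0.777, the glutathione transferases Gsta4 and Gstm1 by 1.98 ± 0.405 and 1.33 ± 0.253, and the receptor Nr1i3 by 1.78 ± 0.403. Adh6a was 10.86 to 11.67 in the Tff2-high arrays, and 4.22 and 4.88 on the 2 arrays with highest Fabp6. On the other 9 Tff2-low arrays with low Pdx1 it was 9.01 to 9.70. Fatty acid oxidation genes were higher in 5 of 14, among them Ehhadh (1.22 ± 0.256), Hadha (0.71 ± 0.164) and Cpt2 (0.43 ± 0.0992). None of these 5 was called without the 2 arrays. Cholesterol synthesis genes were lower in 5 of 16, with a median of -0.53, including Cyp51 (-1.21 ± 0.276), Fdft1 (-1.09 ± 0.293), Hmgcs1 (-0.97 ± 0.254) and Idi1 (-0.76 ± 0.203). Their mean level was 7.83 and 7.94 on the 2 arrays with highest Fabp6, against 6.30 to 7.42 on all other arrays. None of the 5 was called without those 2 arrays, where 189 of all genes were called and the median of the list was -0.27. Fdft1, Hmgcs1 and Idi1 lost their calls without either of the 2.

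**Figure D3:**
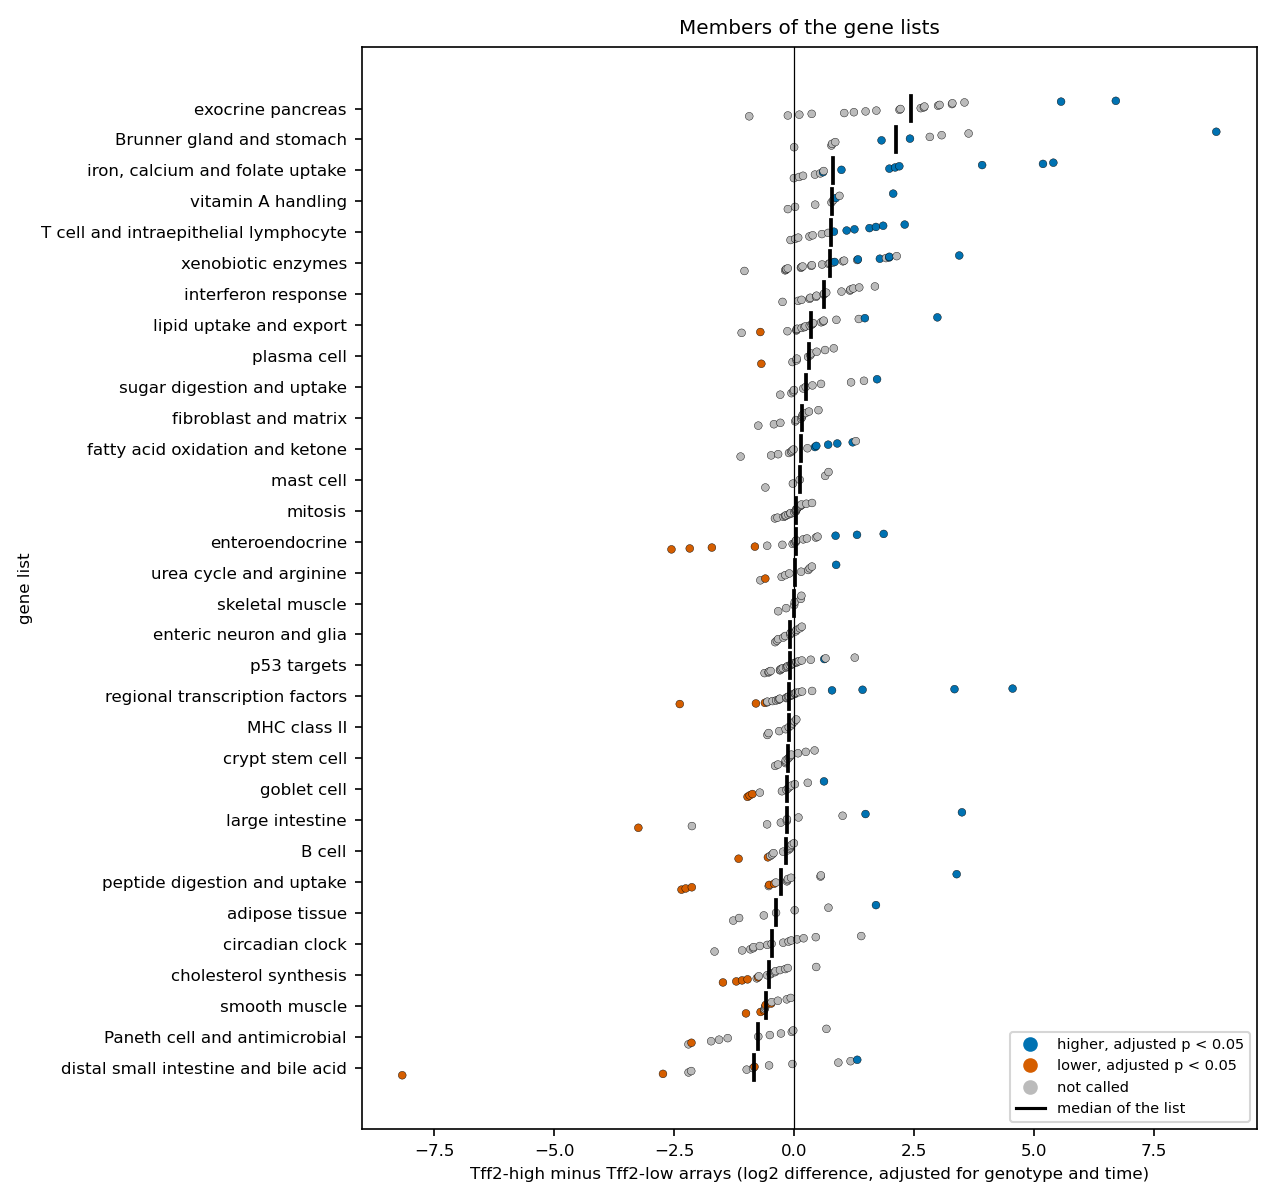
Log2 difference of each tested member (points) of 32 gene lists between 14 Tff2-high and 14 Tff2-low arrays, adjusted for genotype and time; lists are ordered by their medians (bars) and colours mark calls at adjusted p under 0.05. Pancreatic and stomach lists have the highest medians, 2.42 and 2.12, and the distal list has the lowest, -0.84.

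Enteroendocrine genes gave calls in both directions. Of 18 genes tested, 3 were higher and 4 lower, with a median of 0.03. Cck (cholecystokinin) was 5.83 to 7.60 against 3.91 to 6.76 (1.86 ± 0.367, adjusted p = 0.00404), and Gip, an incretin hormone, differed by 1.31 ± 0.34. Pyy (peptide YY) was 3.70 to 4.83 against 4.01 to 8.12 (-2.18 ± 0.477, adjusted p = 0.0065), and Nts (neurotensin) differed by -2.56 ± 0.622. Only Cck of the 7 kept its call without the 2 arrays, and Gip lost its call without WT 24 h replicate 2, WT 6 h replicate 4 or KO 0 h replicate 3. The other calls were Chgb, a granule protein (0.86), Gcg, which encodes proglucagon (-1.72), and Tac1, a tachykinin precursor (-0.82). Secretin (Sct, 0.03) and somatostatin (Sst, 0.49) were not called. Shared endocrine factors such as Neurod1 (0.26) and Pax6 (0.03) were not called.

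Goblet cell genes were lower in 3 of 12 and higher in 1. Muc2, the main secreted mucin, differed by -0.87 ± 0.195, Spink4 by -0.93 ± 0.222 and Ccl6 by -0.97 ± 0.257, while the sialyltransferase St3gal6 differed by 0.62 ± 0.163. Muc2 was 12.11 to 13.04 in the Tff2-high arrays and highest, at 14.28 and 14.43, on the 2 arrays with highest Fabp6. Ccl6 and St3gal6 lost their calls without either of these 2 arrays. Of 11 Paneth cell and antimicrobial genes tested, only Guca2a, guanylin, was called (-2.14 ± 0.47, adjusted p = 0.00626). The median of the list was -0.75. Ang4 (-2.21, adjusted p = 0.0523) and Mmp7 (-1.57, adjusted p = 0.0552) fell just short of a call. Reg3a (0.67, not called) went the other way. Defa31, described above, was not on this list. No gene of the goblet or Paneth lists was called without the 2 arrays.

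Crypt stem cell genes (12 tested) and mitosis genes (21 tested) gave no call in limma. Over all genes 8.22% were called, so lists of this size would hold few calls in any case. Lgr5 differed by -0.18 and Mki67 by -0.18. Of 23 targets of p53, the damage-response factor, 1 was higher, the death receptor Fas (0.62 ± 0.142, adjusted p = 0.00779). This is 4.35% of the list, beside 4.2% of all genes called higher. No target was called without the 2 arrays with highest Fabp6. Cdkn1a (-0.30), Mdm2 (-0.05) and Bbc3 (-0.29) were not called. None of 15 circadian clock genes was called, with a median of -0.47.

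Cytotoxic lymphocyte genes were higher in the Tff2-high arrays. Of 14 T cell and intraepithelial lymphocyte genes tested, 7 were higher and none lower, with a median of 0.77, and 6 kept their call without the 2 arrays. Gzma, granzyme A, was 10.09 to 11.05 (median 10.66) against 7.38 to 11.18 (median 9.81). The lowest Tff2-high value exceeded the Tff2-low median, and the classes overlapped. Its difference was 1.85 ± 0.339 (3.61-fold, adjusted p = 0.00337). Gzmb differed by 2.30 ± 0.482 (adjusted p = 0.00495), Cd7 by 1.25 ± 0.225 and Itgae, the epithelium-binding integrin chain, by 0.83 ± 0.168. On KO 24 h replicate 2, a Tff2-low array with low Pdx1 (3.04), Gzmb was 8.94 and Gzma 10.84, within the range of the Tff2-high arrays. The mean level of the 16 lymphocyte genes on the array was 4.65 to 5.30 in the Tff2-high and 3.82 to 5.25 in the Tff2-low arrays. Cd8a (0.58), Cd3e (0.31) and Cd4 (-0.08) were not called.

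Markers of other tissue layers were also examined. Smooth muscle genes were lower in 5 of 12, with a median of -0.60. Without the 2 arrays with highest Fabp6 the median was -0.50 and 1 gene of the list was called. Synm differed by -1.01 ± 0.222, Synpo2 by -0.70, Tagln by -0.63 and Lmod1 by -0.60, and the last 3 were called in 16, 18 and 21 of 28 fits that left out 1 array. The mean level of the list was 7.42 to 8.39 in the Tff2-high and 7.82 to 9.48 in the Tff2-low arrays. The value of 9.48 was on 1 of the 2 arrays with highest Fabp6. The part of muscle in the other differences was not tested. Of the B cell genes 2 of 12 were lower, Ms4a1 (-1.16 ± 0.356) and Cr2 (-0.55 ± 0.142). No B cell gene was called without the 2 arrays. Ms4a1 was called in 17 of 28 such fits, and Cr2 lost its call without WT 6 h replicate 4. Of 10 plasma cell genes 1 was lower, Sdc1 (-0.69 ± 0.174), which lost its call without WT 24 h replicate 2. Pparg, a nuclear receptor also active in epithelium, was the single adipose list gene called (1.70 ± 0.316), while Adipoq (-1.27) and Fabp4 (-0.64) were not. No call was made among 12 fibroblast, 11 neuron and glia, 5 mast cell, 6 skeletal muscle, 16 interferon response or 9 MHC class II genes.

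Of 10 urea cycle and arginine genes, Arg2 was higher (0.87 ± 0.226) and Oat lower (-0.60 ± 0.173). Arg2 was no longer called when WT 24 h replicate 2 or KO 0 h replicate 3 was left out, and Oat without WT 6 h replicate 4, KO 0 h replicate 3 or KO 0 h replicate 4. In the list of large intestine genes, Slc37a2 and Aqp8, a water channel (1.48 ± 0.429), were higher and Saa1 lower. Aqp8 was called in 22 of 28 fits that left out 1 array.

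After removal of genotype and time, the genes most like Tff2 across the 28 arrays were Gkn3 (r = 0.98), Wfdc18 (0.90), Abcc3 (0.84), Car2 (0.84) and Nat9 (0.83). Those that ran most strongly the other way were Agpat4 (-0.86), Fam117b (-0.83), Slc17a5 (-0.82), Papss1 (-0.81) and Enpep (-0.80). The arrays share their normalization, and these correlations are a description. Papss1, which makes the activated sulfate donor, was 7.20 to 8.02 against 7.46 to 9.92 (-1.66 ± 0.251, adjusted p = 0.00111). Slc17a5, the lysosomal sialic acid exporter, differed by -1.37 ± 0.21, Agpat4, a lipid acyltransferase, by -0.97 ± 0.141 and Fam117b by -0.95 ± 0.152. Nat9 was 5.71 to 6.49 against 4.89 to 5.65 (0.76 ± 0.122, adjusted p = 0.00138).

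The differences were then fitted in each genotype, since the classes were unequal between them. Of the 1121 called genes, 1121 had the same sign in the WT arrays alone and 1120 in the KO arrays alone. These arrays are the same ones that gave the calls, so the signs are a description. Within WT (11 Tff2-high, 3 Tff2-low arrays) 3 genes were called (0.022%), Gkn3 (10.0 ± 0.266), Ttr (2.17 ± 0.235) and Abcc3 (1.24 ± 0.151), and 1327 had an unadjusted p under 0.05. Without WT 24 h replicate 4, the WT array with high Pdx1, 474 genes were called. Within KO (3 Tff2-high, 11 Tff2-low) 1888 genes were called (13.8%), and 1010 without KO 0 h replicate 5, 1184 without replicate 2 and 1191 without replicate 4 of that group. With time as a term, the KO class difference came only from KO 0 h replicates 2, 4 and 5 against replicates 1 and 3. The WT class difference came only from the 6 and 24 h arrays, since all WT arrays at 0 h were Tff2-high. Arrays of the other groups added to the estimate of spread alone.

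The sizes of named differences varied between the genotypes, whose class differences rest on arrays of different times. Slc40a1 differed by 4.07 ± 0.91 in WT and 6.47 ± 1.86 in KO, Fabp6 by -7.12 ± 1.86 and -8.94 ± 2.55, and Pgc by 2.71 ± 0.407 and 0.76 ± 0.463. The class by genotype interaction gave no call (0 of 13644, 0%, limma), with 561 genes at an unadjusted p under 0.05. Leaving out 1 array gave 0 to 11 calls, 11 when WT 6 h replicate 4 was left out and 10 when it was WT 24 h replicate 4. An interaction of class with time (0 h against 6 and 24 h) gave 25 calls (0.183%), 20 positive and 5 negative, with 1518 genes at an unadjusted p under 0.05. The count ran from 7 without WT 24 h replicate 3 to 285 without KO 0 h replicate 1, and was 214 without KO 0 h replicate 3. At 0 h only KO arrays held both classes, and at 6 and 24 h only WT arrays did, so genotype and time cannot be told apart in this interaction.

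**Figure D4:**
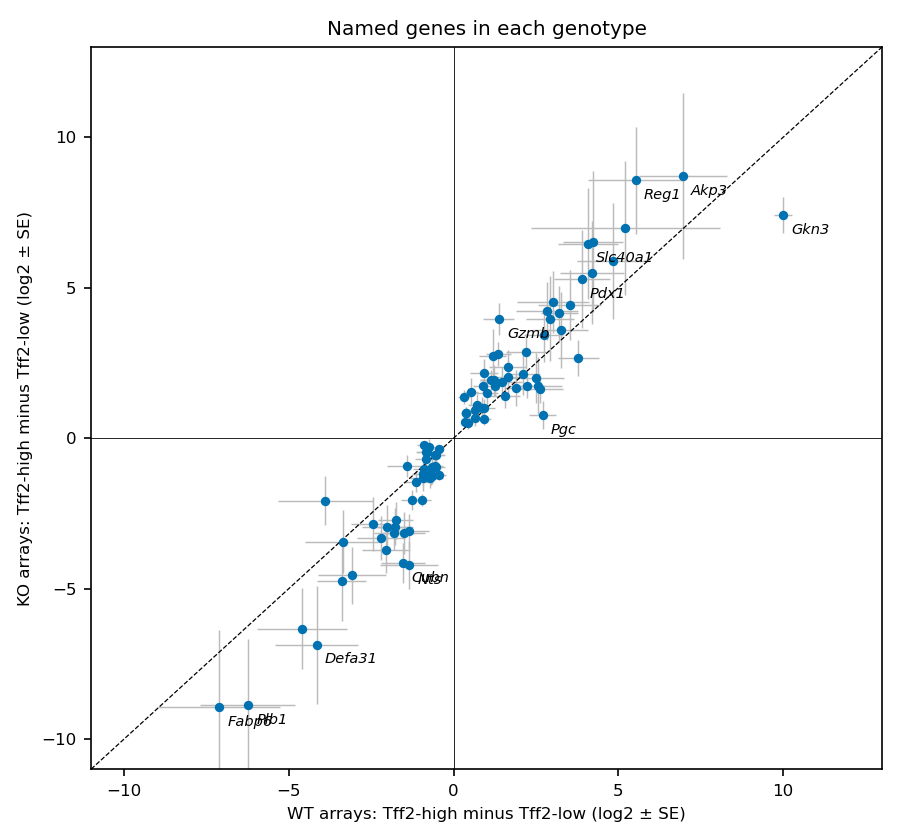
Difference between Tff2-high and Tff2-low arrays in log2 units (± SE) of the named called genes, in WT arrays (horizontal axis, 11 against 3) and KO arrays (vertical axis, 3 against 11), with the line of equal differences dashed. All named called genes have the same sign on both axes, with Gkn3 at 10.0 and 7.41. With time as a term, the KO difference comes from the 0 h arrays alone and the WT difference from the 6 and 24 h arrays.

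Finally, the class was added as a term to the study's own jejunum comparisons, which use all 6 groups. These comparisons share arrays with each other. The genes named in them had been called between the Tff2 classes. How their values change with the term therefore follows in part from that choice and is a description. This holds most for Gkn3, whose classes did not overlap. For KO against WT at 6 h, where all 4 KO arrays and 1 of 5 WT arrays were Tff2-low, the number of called genes was 291 (2.13%) without the term and 42 (0.308%) with it. Gkn3 differed by -7.93 ± 2.13 without the term (adjusted p = 0.0485) and by -0.77 ± 0.559 with it (adjusted p = 0.678). Slc40a1 differed by -5.25 ± 1.63 and -1.23 ± 1.39, and Fabp6 by 7.28 ± 2.53 and 1.00 ± 2.16, none of them called. The values of S100g were -6.43 ± 1.8 and -2.31 ± 1.65.

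For KO 24 h against 0 h the count was 94 (0.689%) without and 379 (2.78%) with the term. For KO against WT at 24 h it was 96 (0.704%) and 259 (1.9%). Between 24 and 0 h in KO, Gzma differed by 2.06 ± 0.387 with the term (adjusted p = 0.00607). Without it the difference was 0.90 ± 0.539 (adjusted p = 0.509). Gzmb differed by 2.62 ± 0.54 with the term (adjusted p = 0.0102), against 1.18 ± 0.703 without it. All KO 24 h arrays were Tff2-low, so the values with the term rest on the class difference fitted in the groups that hold both classes. In these comparisons the class term also takes in the 2 KO 24 h arrays that were Tff2-low but had high Pdx1, and Reg1 differed by 4.34 ± 1.45 with the term and 0.30 ± 1.94 without it, neither called. The count for KO 24 h against 0 h ran from 59 without KO 0 h replicate 3 to 773 without WT 24 h replicate 4.

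For WT 24 h against 0 h the count was 191 (1.4%) without and 100 (0.733%) with the term, and for KO 6 h against 0 h 90 (0.66%) and 48 (0.352%). For WT 6 h against 0 h it was 59 (0.432%) and 67 (0.491%), and for KO against WT at 0 h 25 (0.183%) and 23 (0.169%). At 0 h, Gkn3 differed between KO and WT by -5.69 ± 2.01 without and -2.10 ± 0.462 with the term, neither called.

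**Figure D5:**
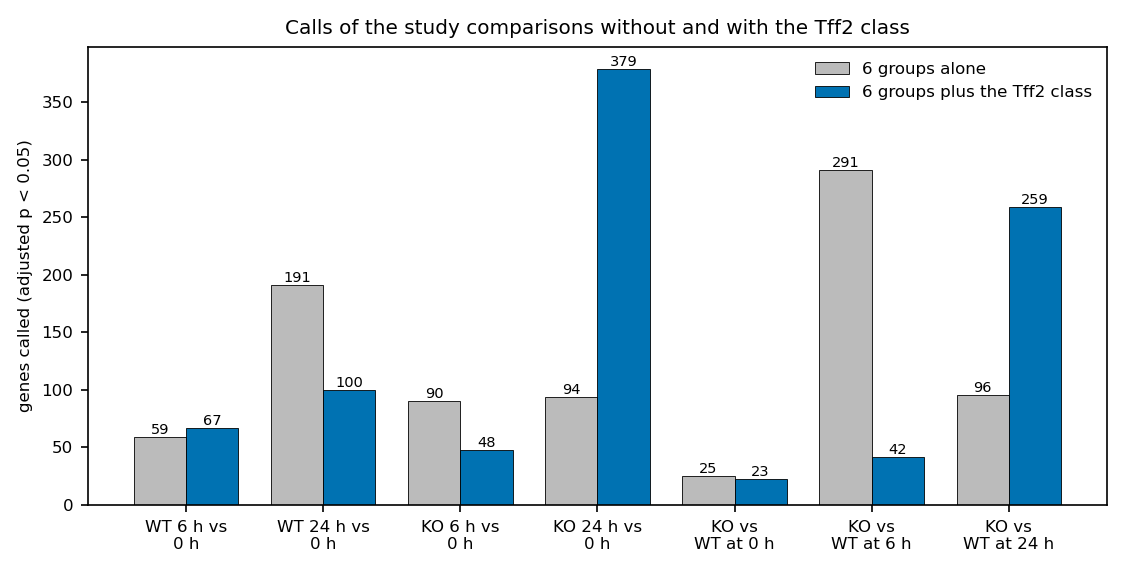
Number of genes called at adjusted p under 0.05 (vertical axis) in 7 jejunum comparisons, fitted with 6 groups alone (grey) and with the Tff2 class added (blue). KO against WT at 6 h falls from 291 to 42 calls, and KO 24 h against 0 h goes from 94 to 379.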

How the data were processed

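Total RNA of whole jejunum was hybridised to Affymetrix mouse arrays of 45101 probe sets. The authors deposited log2 signals. GCRMA and RMA are listed in the submitters' processing notes, with neither version nor role. The deposited log2 values were equal to the series value table. Probe sets annotated to 1 gene (34958) were used, 932 with several genes and 9211 with none were left out, and each of 18194 genes took its brightest probe set. The 25% of genes with the lowest mean and Tff2 were left out, which left 13644. Differences are fitted values ± SE from limma 3.58.1 in R 4.3.3 (genotype, time and class as terms, eBayes with a mean-variance trend, two-sided, Benjamini-Hochberg adjustment over all genes tested, threshold 0.05). The script was tested on simulated data. Counts of class by label used exact tests in SciPy 1.17.1.

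The members, lists and tests were chosen with earlier results of these data known. Named genes were the 12 largest called differences in each direction, up to 4 called members of each list (all called for transcription factors and mineral uptake), the 5 genes most and least correlated with Tff2, and the Tweak pair. Clone and model symbols were not named. List members named without a call, and Chgb, Gcg, Tac1, Gkn1, Slc10a2, Cpa1, Ttr and Ehf, were chosen after their values were seen. Alternatives are given in the closing section. The number of arrays limits the precision. Colon arrays were not used here.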

Additional observations from a re-analysis of the deposited data

Results flagged for a closer look

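For 6 marker genes in each of 6 groups (36 tests), 1 array was set against the others of its group by the gap to its nearest neighbour over the range (Dixon's test). For a gene with no part in sorting the arrays, chance gives about 1 in 20 such groups. Tff2 set the classes, Gkn3 follows it closely, and Pdx1 and Fabp6 picked the 3 and the 2 arrays. The flags below are therefore a description and are not set against chance. WT 6 h replicate 4 stood alone as the only Tff2-low array of its group, with Tff2 at 3.21, Gkn3 at 2.97, Pdx1 at 2.57 and Fabp6 at 10.22. Its Slc10a2 value (2.32) also stood apart, although it lay at the floor to 2 decimals, as did the other arrays of that group. WT 24 h replicate 2 stood apart with Pdx1 at 2.70, Fabp6 at 15.28 and Slc10a2 at 8.25. KO 0 h replicate 3 stood apart with Slc10a2 at 8.83, and KO 24 h replicate 1 with Slc10a2 at 2.55, which is near the floor.

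The class difference itself differed between the 0 h arrays and those of 6 and 24 h for 25 genes by an interaction term in limma. Both classes occurred at 0 h only in KO and at 6 and 24 h only in WT, so genotype and time cannot be told apart in it. Of those 25 genes 20 were positive and 5 negative, and the count was 285 without KO 0 h replicate 1 and 7 without WT 24 h replicate 3.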

How the results depend on the processing

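Of 1121 called genes, the sign was kept in the WT arrays alone for 1121 and in the KO arrays alone for 1120. The count of 1121 became 743 with array batch as a term (712 shared), 1999 with no covariates, 377 in the 3 groups that hold both classes (350 shared), 189 without the 2 arrays with highest Fabp6, 3 in batch 1 alone and 1752 in batch 2 alone. The last 4 use fewer arrays, and for the others the cause was not tested. The batch term has the effect of leaving out KO 0 h replicate 1. With other filters, probe set rules, array weights, Tff2 as a continuous term or 6 groups the count was 872 to 1328, and thresholds of 7 and 9 gave 1121. Settings with the restricted groups, the 3 and 2 arrays left out and single batches were chosen after seeing the data. Leaving out 1 array at a time gave 575 to 1543 calls for the class, 2 to 474 within WT, 1010 to 2510 within KO, 0 to 11 and 7 to 285 for the genotype and time interactions. The ranges were 38 to 180 for WT 6 h, 44 to 141 for WT 24 h, 14 to 132 for KO 6 h and 59 to 773 for KO 24 h against 0 h, and 17 to 27, 9 to 84 and 141 to 849 for KO against WT at 0, 6 and 24 h. Exact p ran from 0.00184 to 0.00703 for genotype, 0.0169 to 0.0835 for time and 0.00633 to 0.0213 for batch. Without the class term the counts were 191 for WT 24 h, 90 for KO 6 h and 94 for KO 24 h against 0 h, and 291 and 96 for KO against WT at 6 and 24 h.

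With the replicate number as a block, 1370 genes were called for the class and 599 for KO 24 h against 0 h. Of the same-numbered pairs of arrays, 19 of 65 had deviations correlated above 0.1. Their median was 0.01, against -0.04 for pairs with different numbers. In all, 9 of 28 arrays correlated best with their own number. These values do not settle whether the numbers paired arrays. Signs turned in 5 cases: Nr5a2 with no covariates (0.11), St3gal6 with the median of probe sets (-0.12), and in batch 2 alone Lmod1 (0.22), Synpo2 (0.056) and Tnfrsf12a (-0.11). In batch 2 alone the class difference set 3 KO 0 h arrays against KO 0 h replicate 3, which is 1 of the 2 arrays with highest Fabp6. The cause of the 5 turns was not tested. Signals near the floor of 2.32 limit what can be said of low genes.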

Other observations

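Among the 9 Tff2-low arrays with low Pdx1 and without high Slc10a2, KO 24 h replicate 3 had the least Fabp6 (2.70) and the most Reg1 (10.5), Slc46a1 (9.34) and Ghrl (5.11) of the 9. Its Plb1 was the lowest of the 9, at 9.03, and its Mgat4c was the lowest at 4.61. The other 8 had Fabp6 of 5.93 or more. Akp3 on these 9 arrays was 2.44 to 2.98 throughout.

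The 2 arrays with highest Fabp6 also differed from each other. S100g was 9.69 on WT 24 h replicate 2 and 7.10 on KO 0 h replicate 3, and Slc40a1 was 7.33 and 4.95. Both signals on the first array exceeded those on the other 9 Tff2-low arrays with low Pdx1. Gzmb was 7.22 and 4.08, and Saa1 was 11.1 and 5.03.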
